A study of Mus musculus with 18 samples.

Results

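Blood cells of mice were taken from the second to the fourth day of factor induction, and the RNA of the day-4 libraries was compared with that of the day-2 libraries. The comparison rests on 6 of the 18 libraries of the series, from the cell types titled LT-HSC (blood stem cells of long-term repopulating capacity), ST-HSC (those of short-term capacity) and MP (myeloid progenitors), each with 1 library at day 2 (2D) and 1 at day 4 (4D). Members were chosen by their titles, paired by cell type, and 20857 protein-coding gene symbols were examined on the scale log2(FPKM + 1), with small RNAs and pseudogenes set aside. FPKM counts mapped fragments per length of transcript and per sequenced library size.

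The donors were C57BL/6 all-iPS mice, that is, animals derived wholly from induced pluripotent cells, whose genome carries Oct4, Sox2, Klf4 and c-Myc under doxycycline control. The D libraries are from cells cultured with doxycycline, and the N libraries, by their titles, from the same 3 cell types cultured for 2 or 4 days without it (2N and 4N). For all 6 N libraries the treatment field nevertheless records doxycycline, so the arms follow the titles, and what the N cells received cannot be settled from the labels. Each blood library was made from 25 hand-picked cells by poly(T)-primed reverse transcription and PCR amplification. Fibroblast libraries of days 2 and 4, made from bulk RNA by another route, are set beside the blood values as a description. No condition had a replicate library. The 3 cell types therefore served as blocks. With such blocks, each p-value rests on how much the change differed between cell types and on spread shared over genes. It does not rest on separate animals or cultures. In the paired D fit the shared spread had 4.92 prior degrees of freedom, beside 2 residual ones. Read depth is unknown because the files give FPKM only.

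Oct4, Sox2, Klf4 and c-Myc are transcription factors that together can return a differentiated cell to a pluripotent state. Early in that process cells commonly lose the programme of their tissue of origin while growth and division are maintained, and pluripotency genes come on later. Blood stem cells are defined by surface receptors such as Kit and by transcription factors such as Runx1, Lmo2 and Hhex, and in them c-Myc is a driver of ribosome production and of entry into the cell cycle. In the results below, sets of 3 values are FPKM in LT-HSC, ST-HSC and MP, in that order.

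The factors themselves differed in how they compared between the days. Myc, which drives ribosome and nucleotide synthesis, was at 67.4, 47.6 and 45.5 FPKM at 2D and 189, 148 and 133 at 4D. All 4D libraries lay above all 2D libraries, with a log2 difference of 1.54 (SE 0.24, limma adjusted p = 0.122). In N, Myc was at 188, 284 and 318 at 2N and 290.5, 205 and 102 at 4N, so the D libraries of day 2 had the lowest Myc values of the 12. Sox2 was at 61.3, 29.1 and 15.6 at 2D and 48.9, 39 and 48 at 4D, with overlapping groups, and at no more than 1.5 in the N libraries. Klf4 stood at 11.2, 0.704 and 6.93 at 2D and 8.16, 3.2 and 9.55 at 4D, and Pou5f1, which encodes Oct4, at 2.04, 2.07 and 0 at 2D and 0, 0 and 2.34 at 4D. These 3 factors showed no common direction from 2D to 4D. The tables do not tell transgene from endogenous transcripts. Among 10 tested pluripotency genes, 1 was higher in all 3 cell types and none was lower, with a list median of 0.01. The gene is Trim28, a chromatin co-repressor, at 869, 545 and 944 FPKM at 2D and 1317, 1250 and 1764 at 4D. It has many functions outside pluripotency.

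Markers showed that the labelled cell types were unevenly preserved in the D libraries. Ptprc, the pan-leukocyte protein CD45, was at 2.47, 55.9 and 6.7 FPKM at 2D and 0, 22 and 0 at 4D, while in the N arm it was at 25.9, 28.5 and 26.4 at 2N and 20.3, 30.9 and 25.7 at 4N. Of the 38 surface and signature genes of blood stem cells, 29, 33 and 29 reached 1 FPKM at 2D, and 13, 31 and 14 did at 4D. Their summed level was 2506, 6677 and 1314 FPKM at 2D and 1152, 4969 and 1227 at 4D, against 5143 to 8342 FPKM over the 6 N libraries. Slamf1, a marker of long-term stem cells, was at 0 in all 6 D libraries, and Cd34 was at 0, 155 and 0 at 4D (both genes were chosen after their values were seen). The ST-HSC library of day 4 thus stood apart from the other 2 libraries of day 4, with blood genes present that were listed at or near 0 in LT-HSC and MP. With bulk RNA from 25 cells, fewer blood cells among those picked and less RNA per cell cannot be told apart.

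**Figure D1:**
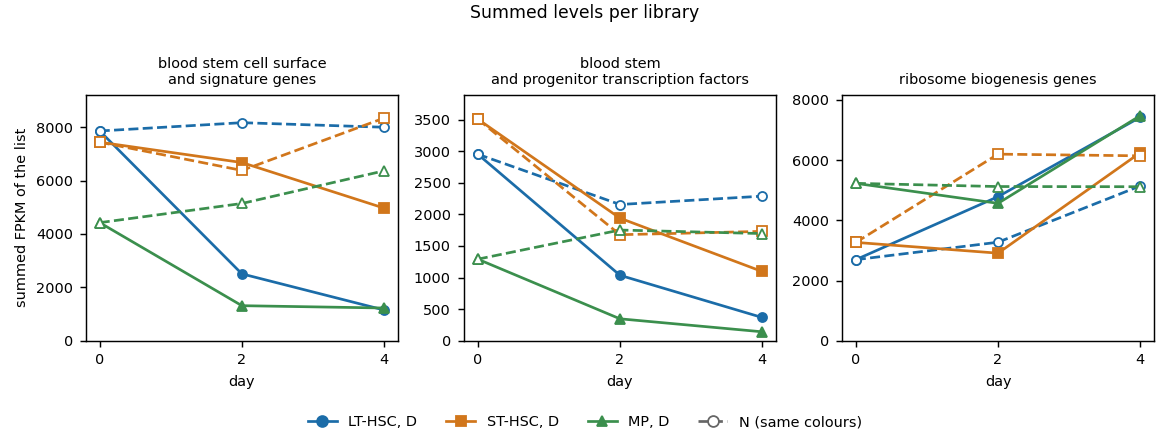
Summed FPKM of 3 gene lists (vertical axis) by day (horizontal axis) in single libraries, with filled points for D, open points for N and for the day-0 libraries, from which both arms start. The ST-HSC library of day 4 kept 4969 FPKM of stem cell surface genes, against 1152 in LT-HSC and 1227 in MP, and ribosome biogenesis sums were higher at 4D than at 2D in all 3 cell types.

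Across the transcriptome no single gene passed the paired test. Of 10769 genes tested by limma with cell type as a block, 0 (0%) had a Benjamini-Hochberg adjusted p under 0.05, and the smallest was 0.105. At an unadjusted p under 0.05, 810 genes (7.52%) were higher and 913 (8.48%) lower at 4D. An exact sign-flip test on 3 pairs cannot go below p = 0.25, so none was run on single genes. When the ST-HSC pair was left out, 45 genes higher and 116 lower passed, in a fit with 1 residual degree of freedom that leans on the spread shared over genes; without the MP pair 1 and 5 passed, and without the LT-HSC pair 0 and 0. Among them were Coro1a, an actin-binding protein of leukocytes, and Lmo2, Cd74, Ctss, B2m, Gstm1, Btg2, Pax6, Sparc, Nop56 and Myc. When all 15 blood libraries were fitted together, 2 genes higher (Pax6 and Rps21) and 7 lower (Ly6d, Gm2000, Gadl1, Ly6g6e, Rplp0, Tpt1 and H2-Ab1) passed.

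Since no call was made, the genes are described by size and by agreement between cell types. By any amount, 1874 tested genes (17.4%) were higher at 4D in all 3 cell types and 2210 (20.5%) were lower. The counts of list members below are to be read against these shares of all genes. At least 2-fold in all 3 cell types, among 8294 genes with 10 FPKM in at least 1 of the 6 libraries, 84 (1.01%) were higher and 223 (2.69%) lower. The same rule in the N arm gave 34 higher (0.419%) and 56 lower (0.691%) of 8107. Of the 84 genes, 3 were also 2-fold higher in N, and of the 223, 10 were also 2-fold lower there. The median log2 difference of the 84 genes was 1.76 in D, where the rule chose them, and 0.18 in N; that of the 223 was -2.08 in D and -0.25 in N. Complete separation of the 3 libraries of each day was found for 775 of the 8294 genes above (9.34%) and 673 below (8.11%). The libraries themselves differed between days in other ways: 10063 to 10232 coding genes reached 1 FPKM at 2D and 9541 to 10008 at 4D, and coding genes held 82.48% to 86.15% of all FPKM at 2D and 88.08% to 89.33% at 4D. In the N arm fewer coding genes also reached 1 FPKM at day 4 (9517 to 9563) than at day 2 (9730 to 9960). The part of these shifts in the excess of lower genes was not tested.

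**Figure D2:**
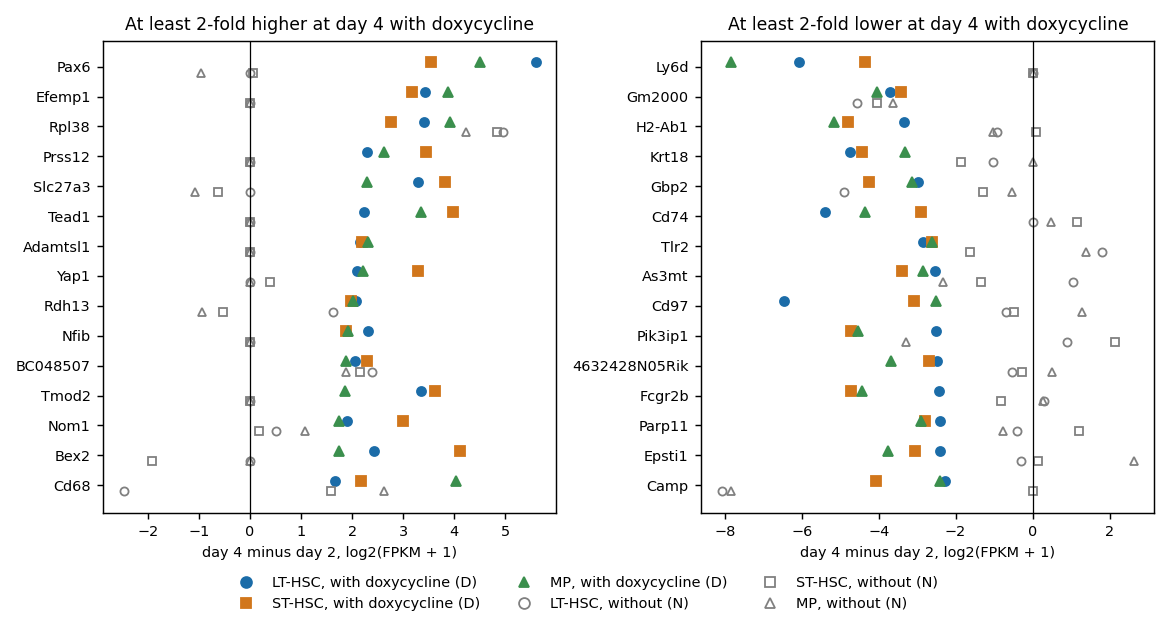
Change from day 2 to day 4 on the log2(FPKM + 1) scale (horizontal axis) for the 15 genes with the largest smallest change in each direction, each point 1 cell type, filled for D and open grey for N. All filled points lie past 1 in size by the rule that chose the genes, the grey points of Efemp1, Prss12, Tead1, Adamtsl1, Nfib and Tmod2 lie at 0, and those of Rpl38, BC048507 and Gm2000 lie with the filled points.

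Most genes of ribosome production were higher at 4D in all 3 cell types. Of 48 tested ribosome biogenesis genes, 33 were higher at 4D in all 3 cell types and 0 lower, against 17.4% and 20.5% of all genes. Their median log2 difference was 0.78, beside -0.06 for all genes, and the medians by cell type were 0.45, 1.07 and 0.60. Nop56, a core protein of the box C/D particles that guide rRNA methylation, was at 364, 325 and 210.1 FPKM at 2D and 950, 1076 and 808 at 4D. Every 4D library lay above every 2D library (log2 difference 1.68, SE 0.19, limma adjusted p = 0.105). Gnl3, the nucleolar GTPase nucleostemin, was at 82.1, 29.8 and 64.1 at 2D and 239, 152 and 134 at 4D. Rrp12, which acts in export of pre-ribosomes, was at 10.2, 6.77 and 4.17 at 2D and 23.8, 19.8 and 13.8 at 4D, and Wdr12, a subunit of the PeBoW complex of large-subunit assembly, at 19.8, 19.1 and 17.5 at 2D and 54.4, 39.4 and 39.5 at 4D. These 4 genes separated the days completely. Other named members had smaller differences and overlapping days: Emg1, an rRNA methyltransferase, was at 349.6, 399 and 666 at 2D and 716, 597 and 697 at 4D, and Nhp2, of the box H/ACA particles, at 387, 209.5 and 502 at 2D and 501, 473 and 857 at 4D. Among the 84 genes were 3 further genes of nucleolar proteins, chosen after their values were seen. Dcaf13 was at 59.1, 64.3 and 49.8 at 2D and 165, 134 and 152 at 4D, Wdr74 at 87, 92.4 and 102 at 2D and 188, 192 and 256 at 4D, and Gpatch4 at 17.5, 29.1 and 24.6 at 2D and 44.4, 107 and 81.5 at 4D. In the N arm Nop56 was at 268, 574 and 475 at 2N and 698, 703 and 562 at 4N, so its 4D levels exceeded all N levels. The N list median was 0.11, with 0.58, -0.05 and -0.14 by cell type, and was above 0 there in LT-HSC only.

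Promoters were searched because the ribosome genes were higher together with Myc, which binds DNA as a partner of Max at the E-box CACGTG. Windows from 250 bases before to 50 after each RefSeq start (GRCm38.p6) were found for 8672 of the 10769 tested genes, 42 of the 48 ribosome biogenesis genes, 67 of the 84 higher genes and 175 of the 223 lower genes. CACGTG, which reads the same on both strands, was in 26.2% of the ribosome biogenesis promoters (11 of 42), 16.4% of those of the 84 genes, 10.9% of those of the 223 and 12.1% of all. ACAATGG, the core of Sox sites, on either strand was in 2.99%, 3.43% and 2.39% of the higher, lower and all promoters. TGACTCA, the AP-1 site, was in 5.97%, 6.86% and 4.17%. A gene was counted where the window of any of its starts held the letters. A match is a description of letters and not a site of binding. Nop56, Gnl3 and Wdr12 hold no CACGTG in their windows. Of the 11 ribosome genes that do, only Imp4, Nop2, Utp18 and Rrn3 have a match wholly before the start. In the others of the 11 it lies across or after the start. Of the genes with a match before the start, the 3 with the largest fitted difference are printed. The letters run from 250 bases before the start up to it, 5′ to 3′ on the gene's strand, with CACGTG in capitals.
Imp4 (chr1:34439579-34439828, plus strand): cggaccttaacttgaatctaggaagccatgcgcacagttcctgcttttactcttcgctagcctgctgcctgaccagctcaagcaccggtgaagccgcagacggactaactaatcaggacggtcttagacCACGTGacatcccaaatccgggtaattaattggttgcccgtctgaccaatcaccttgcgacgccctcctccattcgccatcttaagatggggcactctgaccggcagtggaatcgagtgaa
Nop2 (chr6:125131633-125131882, plus strand): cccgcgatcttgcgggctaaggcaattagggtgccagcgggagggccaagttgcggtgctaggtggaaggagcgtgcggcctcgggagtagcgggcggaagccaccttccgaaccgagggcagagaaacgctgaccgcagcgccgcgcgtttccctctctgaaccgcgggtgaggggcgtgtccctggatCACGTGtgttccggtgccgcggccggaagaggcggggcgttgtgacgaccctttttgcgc
Utp18 (chr11:93885767-93886016, minus strand): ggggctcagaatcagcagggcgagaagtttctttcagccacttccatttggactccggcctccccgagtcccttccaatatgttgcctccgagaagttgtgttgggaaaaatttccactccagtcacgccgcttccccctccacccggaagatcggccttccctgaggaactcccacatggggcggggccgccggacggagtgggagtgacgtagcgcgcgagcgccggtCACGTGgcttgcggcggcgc
Imp4, of the U3 particle that cuts pre-rRNA, was at 175, 102 and 122 FPKM at 2D and 265, 259 and 364 at 4D, and its match begins 121 bases before the start. Nop2, an rRNA methyltransferase, was at 32.5, 31.5 and 53.6 at 2D and 73.4, 60.2 and 87.2 at 4D, with the match at 60 bases. Utp18, of the same U3 complex, was at 84.6, 45.6 and 33.5 at 2D and 96.4, 79.7 and 63.1 at 4D, with the match at 20 bases. All 3 genes were higher in each cell type at 4D, but they were picked by the size of their fitted difference. Whether CACGTG bears on the change was not tested.

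Other MYC-linked genes were mixed. Of 29 tested members of the MYC network and its growth targets, 9 were higher and 5 lower in all 3 cell types, with a median of 0.35. Cdk4, the G1 kinase, was at 1873, 1365 and 1533 FPKM at 2D and 2377, 1875 and 1817 at 4D, and Ldha, which makes lactate, at 590, 331 and 682 at 2D and 847, 546 and 782 at 4D. Npm1, a nucleolar chaperone, overlapped, with 982, 735 and 785 at 2D and 1107, 704 and 743 at 4D. Nme1, a nucleotide kinase, did so as well, with 667, 462 and 838 at 2D and 612, 615 and 800.5 at 4D.

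Of the cell cycle genes, those of mitosis and those of replication were counted apart. Of 45 tested G2/M genes, 22 were higher in all 3 cell types and 2 lower, with a median of 0.61 and cell-type medians of 0.67, 1.24 and 0.19. Cdk1, the mitotic kinase, was at 326, 195 and 284 FPKM at 2D and 579.8, 452 and 567 at 4D, with no overlap. Ube2c, which delivers ubiquitin to the anaphase-promoting complex, was at 348, 310.5 and 310.4 at 2D and 484, 737 and 593 at 4D. Top2a, which untangles chromosomes, overlapped between days at 200.2, 153 and 336 at 2D and 297, 312 and 357 at 4D. None of the 45 reached 2-fold in all 3 cell types. Of 50 genes of G1/S and replication, 13 were higher and 5 lower in all 3 cell types, with a median of 0.29 and MP alone negative at -0.27. Rfc3, a clamp loader subunit, stood at 242, 121 and 184 at 2D and 502, 288 and 216 at 4D, and Mcm5, of the replicative helicase, at 227, 266 and 297 at 2D and 311, 271 and 387 at 4D. The N medians were -0.09 for G2/M and 0.15 for replication genes.

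Several inhibitors of proliferation were lower at 4D. Btg2, an antiproliferative gene and p53 target, was at 75.2, 176 and 154 FPKM at 2D and 10.6, 27.2 and 39.5 at 4D, a log2 difference of -2.44 (SE 0.30, limma adjusted p = 0.105) with no overlap. Cdkn1c, the CDK inhibitor p57 that marks quiescent stem cells, was at 7.45, 15.6 and 5.88 at 2D and 0, 3.32 and 1.67 at 4D. Pik3ip1, which restrains PI3 kinase, was at 11.7, 69.1 and 30.2 at 2D and 1.22, 1.66 and 0.333 at 4D. Foxo1 and Sesn3, parts of the same nutrient and growth factor pathway and chosen after their values were seen, were at 38.6, 86.4 and 33 at 2D and 10.5, 24.2 and 6.37 at 4D, and at 9.54, 20.01 and 4.44 at 2D and 1.2, 0 and 0 at 4D. Of the 30 tested CDK inhibitors and p53 targets, however, 6 (20.0%) were higher and 9 (30.0%) lower in all 3 cell types. All genes gave 17.4% and 20.5%, and the list median was -0.39. In the N arm Btg2 was at 10.8, 12.2 and 5.65 at 2N and 5.51, 8.4 and 14.2 at 4N, and Foxo1 at no more than 1.37 in any library. Cdkn1a, which encodes p21, overlapped at 35.4, 62.7 and 217 at 2D and 52.1, 30.7 and 233 at 4D, as did Trp53 at 125, 123 and 110.2 at 2D and 106, 138 and 174 at 4D.

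**Figure D3:**
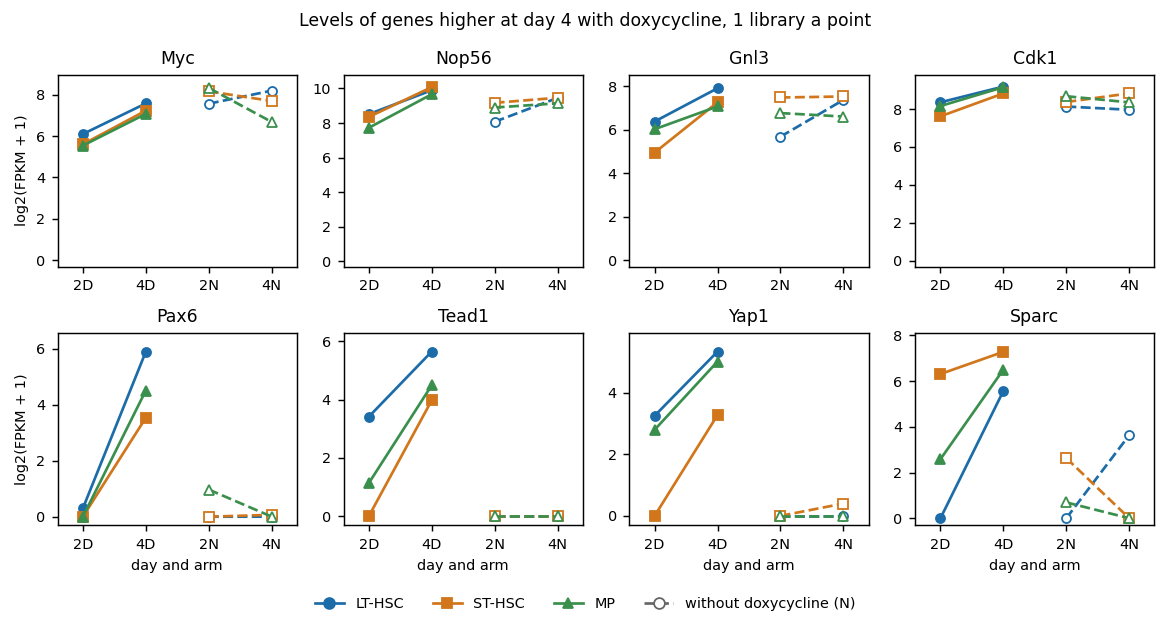
Levels of 8 genes on the log2(FPKM + 1) scale (vertical axis) in the 2D, 4D, 2N and 4N libraries (horizontal axis), each point 1 library and each line 1 cell type. Myc, Nop56, Gnl3 and Cdk1 were present in both arms, whereas Tead1 was at 0 in all 6 N libraries and Pax6 and Yap1 were below 1 FPKM there.

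Another set of higher genes was at or near 0 in the N arm. Pax6, a transcription factor of eye and brain development, was at 0.231, 0 and 0 FPKM at 2D and 58.5, 10.6 and 21.7 at 4D, the largest log2 difference of the 84 genes at 4.54 (SE 0.60, limma adjusted p = 0.105). Yap1, the coactivator at the end of the Hippo pathway, was at 8.54, 0 and 5.96 at 2D and 39.6, 8.72 and 31.5 at 4D. Tead1, the DNA-binding partner of Yap1, was at 9.65, 0 and 1.2 at 2D and 49.1, 14.7 and 21.5 at 4D. Jub, the LIM protein Ajuba that binds Hippo kinases and was chosen after its values were seen, was at 9.65, 4.02 and 0 at 2D and 25.5, 24 and 13.1 at 4D. For Pax6, Yap1, Tead1 and Jub all 4D libraries lay above all 2D libraries. Efemp1, a matrix fibulin, was at 1.54, 0 and 6.25 at 2D and 26.1, 8.05 and 105 at 4D and at 0 in all 6 N libraries. Nfib, a developmental transcription factor, was at 0.847, 0 and 2.24 at 2D and 8.11, 2.7 and 11.3 at 4D, and likewise at 0 in N. Prss12, a serine protease, Adamtsl1, a matrix protein, and Tmod2, a neuronal actin-capping protein, were at 0 in all 6 N libraries as well, and at 4D Prss12 stood at 11.9, 9.86 and 42.9, Adamtsl1 at 6.31, 3.58 and 27.3 and Tmod2 at 13.8, 11.4 and 3.55. Slc27a3, a fatty acid acyl-CoA synthetase, was at 3.73, 0 and 6.16 at 2D and 45.3, 13.1 and 34 at 4D. Bex2, a small adaptor of neural tissue, was at 5.65, 0 and 0 at 2D and 35, 16.4 and 2.32 at 4D, with overlap between days. Its transcripts share sequence with those of other genes, as given further below.

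The lists of neural and matrix genes had no common direction. Of 21 tested neural genes, 4 were higher and 2 lower in all 3 cell types, and the median was -0.29. Their summed level was 1325, 1075 and 2155 FPKM at 2D and 1631, 582 and 2952 at 4D, against 113 to 224 over the 6 N libraries. Stmn2, a neuronal tubulin regulator, stood at 714, 454 and 504 at 2D and 655, 105 and 1267 at 4D, with no common direction. Helt, a transcription factor of midbrain neurons, was at 41, 28 and 142 at 2D and 166, 60.1 and 189.6 at 4D, higher in each cell type with overlapping groups. Otx2, a forebrain factor chosen after its values were seen, was at 57.8 in the LT-HSC library of day 4 and at 0 in the other 5 D libraries. Of 20 tested mesenchymal and matrix genes, 4 were higher and 3 lower in all 3 cell types. Sparc, a secreted matrix glycoprotein, was at 0, 78.3 and 5 at 2D and 46.5, 154 and 89.7 at 4D. Mmp14, a membrane metalloprotease, was at 0, 2.7 and 0 at 2D and 1.24, 14.6 and 2.59 at 4D. Vim, the mesenchymal filament protein, was at 1058, 2732 and 1682 at 2D and 1193, 813 and 1420 at 4D, lower in ST-HSC and near its day-2 level in the other 2 cell types.

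Signalling lists held genes in both directions. Fst, the secreted activin antagonist follistatin, was at 5.88, 6.74 and 0.46 FPKM at 2D and 17.2, 21.3 and 50.1 at 4D. Tgfbr2, the type II receptor for TGF-beta, was at 12.6, 25.4 and 18 at 2D and 3.15, 9.67 and 3 at 4D. Both separated the days completely, in opposite directions. Of 33 tested genes of the TGF-beta and BMP pathway, 4 were higher and 9 lower in all 3 cell types. That is 12.1% and 27.3%, against 17.4% and 20.5% of all genes. The BMP targets Id1 and Id3 were lower in LT-HSC and ST-HSC and higher in MP: Id1 was at 377, 167 and 152 at 2D and 95.4, 142 and 315 at 4D, and Id3 at 656, 515 and 293 at 2D and 288, 336 and 757 at 4D. Of 26 tested WNT genes, 0 were higher and 5 (19.2%) lower in all 3 cell types. Ctnnb1, which encodes beta-catenin, had no common direction, at 326, 381 and 292 at 2D and 459, 334 and 364 at 4D. Of 13 tested genes of MAPK feedback and FGF signalling, 2 (15.4%) were higher and 3 (23.1%) lower, near the shares of all genes. Dusp6, an ERK phosphatase, was at 0.523, 9.95 and 0 at 2D and 5.13, 21.7 and 0.996 at 4D, and Spry2, an inhibitor of receptor signalling, at 7.41, 14.6 and 1.81 at 2D and 1.82, 1.23 and 1.17 at 4D.

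Genes of antigen presentation and of the interferon response were lower at 4D. Of 27 tested interferon and antigen presentation genes, 16 were lower in all 3 cell types and 0 higher, and 5 of the 25 with 10 FPKM were at least 2-fold lower in all 3, against 2.69% of all genes. The list median was -0.93 (-1.36, -0.64 and -1.25 by cell type) and in N it was -0.05. B2m, the light chain of MHC class I, was at 1660, 2958 and 1861 FPKM at 2D and 365, 1010 and 683 at 4D, with no overlap (log2 difference -1.73, SE 0.19, limma adjusted p = 0.105). Psmb9, an immunoproteasome subunit, was at 12.6, 103 and 16.6 at 2D and 0, 41.5 and 0 at 4D, lower in each cell type but with ST-HSC at 4D above LT-HSC and MP at 2D. H2-K1, a class I heavy chain, overlapped at 423, 739 and 167 at 2D and 186, 639 and 196 at 4D and was higher in MP. B2m was also lower at day 4 in all 3 cell types of the N arm, at 4095, 2442 and 1483 at 2N and 2258, 1416 and 1303 at 4N. The interferon-induced GTPase genes Gbp2 and Gbp3 differed likewise: Gbp2 was at 6.95, 18.2 and 7.74 at 2D and at 0 in all 3 libraries of 4D, and Gbp3 at 3.54, 12.3 and 2.41 at 2D and 0, 0.595 and 0 at 4D. Oas1a, which senses double-stranded RNA, was at 7.09, 13.5 and 2.67 at 2D and 0, 3.98 and 0 at 4D. Epsti1 and Parp11, both named for the size of their smallest difference over the 3 cell types, were lower too. Epsti1 was at 4.28, 39.4 and 12.6 at 2D and 0, 3.88 and 0 at 4D, and Parp11 at 4.29, 19.6 and 10.6 at 2D and 0, 1.98 and 0.545 at 4D.

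Of the MHC class II pathway, H2-Ab1 and Cd74 were lower in all 3 cell types. H2-Ab1, a class II beta chain, was at 22.8, 142 and 34.9 FPKM at 2D and 1.32, 4.16 and 0 at 4D (log2 difference -4.44, SE 0.52, limma adjusted p = 0.105). Cd74, the invariant chain that escorts class II molecules, was at 40.9, 40.6 and 19.5 at 2D and 0, 4.61 and 0 at 4D. By contrast, in N H2-Ab1 was at 29.5, 87.4 and 82.5 at 2N and 14.9, 93.6 and 39.7 at 4N, and Cd74 at 0, 19.4 and 46.7 at 2N and 0, 44.2 and 65.8 at 4N, so both were present on both days in ST-HSC and MP. H2-Eb1 was at 0, 35.7 and 18.9 at 2D and at 0 in all 3 libraries of 4D. The peptide-loading genes H2-DMa and H2-Oa, chosen after their values were seen, were at 13.9, 48.3 and 9.48 at 2D and 0, 18.7 and 3.04 at 4D, and at 1.97, 25.8 and 1.5 at 2D and 0, 1.63 and 0 at 4D. Ctss, the protease that trims the invariant chain, was at 76.9, 56.4 and 18.4 at 2D and 0, 27.6 and 0 at 4D. Antigen-presenting cells carry these genes, but Cd68, a macrophage lysosomal protein, went the other way at 0, 2.87 and 0 at 2D and 2.15, 16.5 and 15.3 at 4D. The summed level of the 27 macrophage and dendritic markers in the table was 144, 307 and 116 FPKM at 2D and 8.58, 78.5 and 34 at 4D. That sum includes H2-Ab1, Cd74, H2-Eb1 and Ctss themselves and is not separate from them. Of 11 tested markers, 2 (18.2%) were higher and 3 (27.3%) lower in all 3 cell types. All genes gave 17.4% and 20.5%. The part of a change in antigen-presenting cells among those picked was not tested.

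**Figure D4:**
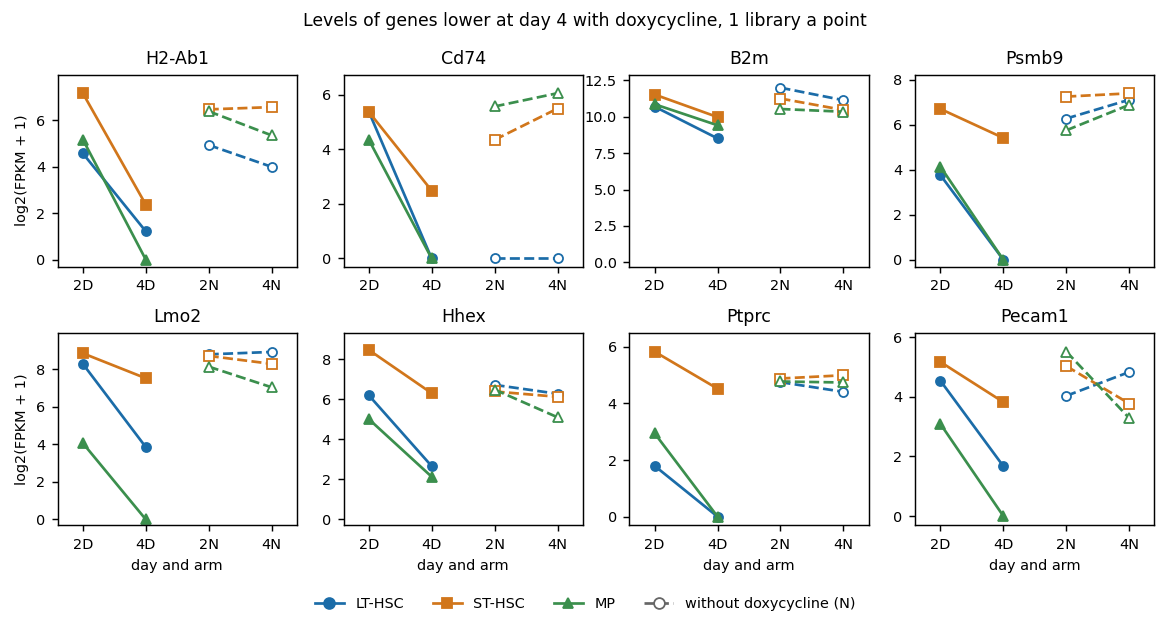
Levels of 8 genes on the log2(FPKM + 1) scale (vertical axis) in the 2D, 4D, 2N and 4N libraries (horizontal axis), each point 1 library and each line 1 cell type. All 8 genes were lower at 4D than at 2D in each cell type, and at 4D all 8 were highest in ST-HSC.

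Blood transcription factors were lower on balance at 4D. Of 35 tested stem and progenitor factors, 15 were lower in all 3 cell types and 1 higher, and the median was -0.91. The N arm also had a negative median, -0.61. Hhex, a homeobox factor of stem cells, was at 72.1, 351 and 31 FPKM at 2D and 5.27, 77.4 and 3.34 at 4D (log2 difference -2.86, SE 0.37, limma adjusted p = 0.105). Lmo2, the bridging protein of the Tal1 complex, was at 308, 457 and 15.6 at 2D and 13.4, 181 and 0 at 4D. Runx1, required for blood stem cells to form, was at 7.47, 14.6 and 8.08 at 2D and 1.91, 6.36 and 1.99 at 4D, with no overlap. In N, Hhex was at 104, 82.2 and 87.9 at 2N and 75.9, 68.3 and 33 at 4N, and Lmo2 at 439, 415 and 279 at 2N and 480.5, 309 and 129.7 at 4N. Sfpi1, which encodes the myeloid factor PU.1, was at 11.9, 183 and 75.7 at 2D and 0, 95.8 and 0 at 4D, and Mecom, a factor of stem cell maintenance, at 94.2, 85.2 and 6.64 at 2D and 24.9, 15.8 and 6.26 at 4D. Nfe2, an erythroid and megakaryocytic factor, was the exception in ST-HSC, at 13.8, 156 and 6.79 at 2D and 0, 185 and 6.5 at 4D. Among ETS and co-repressor genes chosen after their values were seen, Ets1 was at 7.78, 11.2 and 5.83 at 2D and 0, 1.03 and 1.97 at 4D, Elf4 at 13.3, 23.5 and 5.88 at 2D and 2.75, 8.13 and 0.167 at 4D, and Cbfa2t3 at 4.26, 33.4 and 7.55 at 2D and 0, 11.2 and 0 at 4D.

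Surface and signature genes of blood stem cells were lower at 4D, least so in ST-HSC. Of 33 tested members, 16 were lower in all 3 cell types and 0 higher, with medians of -2.14, -0.59 and -1.19 by cell type and -0.25 in N. Pdzk1ip1, a signature gene of LT-HSC, was at 28.2, 85.5 and 3.37 FPKM at 2D and 1.93, 0 and 0 at 4D. Coro1a was at 202, 2254 and 124 at 2D and 24.9, 1907 and 5.4 at 4D, with a small difference in ST-HSC and large ones in LT-HSC and MP. Ifitm3, an antiviral membrane protein, had no common direction, at 898, 735 and 305 at 2D and 647, 795 and 547 at 4D. Dock2 and Nckap1l, which drive Rac signalling and actin in leukocytes and were chosen after their values were seen, were at 12.2, 61.4 and 18.8 at 2D and 0, 13.9 and 0 at 4D, and at 33.4, 99.2 and 46.5 at 2D and 0, 29.9 and 1.03 at 4D. Kit, the stem cell factor receptor, was nearly level at 5.87, 28.9 and 2.61 at 2D and 4.43, 23.5 and 4.29 at 4D. Fcgr2b, an inhibitory Fc receptor, Tlr2, a bacterial lipoprotein receptor, and Cd97, an adhesion receptor, were among the 15 lower genes of largest smallest difference. Fcgr2b was at 4.38, 25.4 and 20.6 at 2D and 0, 0 and 0 at 4D, Tlr2 at 8.91, 23.5 and 5.17 at 2D and 0.375, 3.03 and 0 at 4D, and Cd97 at 86.7, 157 and 51 at 2D and 0, 17.6 and 8.13 at 4D.

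Genes that stem cells share with endothelium had a list median of -1.76 over the 3 cell types. Of 12 tested endothelial genes, 7 were lower in all 3 cell types and 0 higher, and the medians were -3.11, -1.02 and -0.50. Icam2, an adhesion molecule, was at 92.7, 24.9 and 4.69 FPKM at 2D and 0, 7.05 and 0 at 4D. Pecam1, of endothelial junctions, was at 22.2, 34.9 and 7.5 at 2D and 2.19, 13.1 and 0 at 4D, and Esam, a junction protein that marks stem cells, at 69.2, 132 and 1.28 at 2D and 0, 56.9 and 0 at 4D. Egfl7 went against them in ST-HSC, at 124, 394 and 34.1 at 2D and 41.5, 705 and 22.8 at 4D. The summed level of the 18 endothelial genes in the table was 639, 767 and 84.6 at 2D and 93.2, 892 and 53.9 at 4D.

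Granulocyte genes, which myeloid progenitors carry, were already low at 2D. The summed level of the 31 neutrophil granule genes in the table was 207, 765 and 336 FPKM at 2D and 76.9, 381 and 109 at 4D, against 5933, 7220 and 45040 at 2N and 533, 11220 and 38450 at 4N. Of 18 tested, 9 were lower in all 3 cell types and 0 higher. Camp, an antimicrobial peptide, was at 3.81, 15.9 and 4.34 at 2D and at 0 in all 3 libraries of 4D, and Fcer1g, an Fc receptor chain, at 2.92, 17.9 and 30.3 at 2D and 0, 2.02 and 0 at 4D. Hbb-y, an embryonic beta-like globin, was at 2707, 6887 and 2556 at 2D and 63.1, 3032 and 836 at 4D, and at no more than 17.6 in N. Of 13 tested erythroid and globin genes, however, 1 was higher and 3 lower in all 3 cell types, with a median of -0.015. Ly6d, a marker of lymphoid and epithelial cells, was at 66, 19.6 and 228 at 2D and at 0 in all 3 libraries of 4D and in all 6 N libraries. Its log2 difference was -6.09 (SE 0.71, limma adjusted p = 0.105). It was the only one of 6 tested lymphoid genes to be lower in all 3 cell types. Selp, of platelet granules, was at 14.1, 55 and 1.87 at 2D and 0, 19.7 and 0 at 4D, and Slc18a2, a monoamine transporter of mast cells, at 4.39, 33 and 15.1 at 2D and 0, 8.79 and 2.26 at 4D. Srgn, a granule proteoglycan, was at 364, 542 and 113 at 2D and 28.9, 415 and 1.8 at 4D, again with ST-HSC retaining the most. Of 10 tested mast cell and basophil genes, 4 were lower in all 3 cell types and 0 higher. Of 10 tested megakaryocyte and platelet genes, 3 were lower and 1 higher. The summed level of the platelet list was 69.6, 279 and 75.8 FPKM at 2D and 36.8, 344 and 97.8 at 4D, lower in LT-HSC only.

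Cytokine signalling components were lower on balance. Of 31 tested JAK-STAT genes, 12 were lower in all 3 cell types and 1 higher, with a median of -0.52 in D and 0.16 in N. Socs2, a feedback inhibitor of cytokine receptors, was at 61.6, 124 and 74 FPKM at 2D and 30.8, 44.9 and 7.57 at 4D. Il2rg, the common gamma chain, was at 47, 83 and 43.6 at 2D and 0.65, 88.9 and 9.76 at 4D. Of 15 tested NF-kB genes, 6 were lower and 0 higher. Nfkbia, the inhibitor that NF-kB itself induces, was at 141, 87.3 and 117 at 2D and 37.1, 60.9 and 61.1 at 4D. Tnip1, another feedback inhibitor, was at 20.3, 28 and 27.5 at 2D and 2.45, 6.7 and 13.7 at 4D. For both, all 4D libraries lay below all 2D libraries. Of 23 tested immediate early genes, 6 (26.1%) were lower in all 3 cell types, against 20.5% of all genes, and 0 were higher. Their medians were -0.97 in LT-HSC, -0.715 in ST-HSC and 0.53 in MP, so MP went the other way. Zfp36, which destabilises cytokine mRNAs, was at 16.1, 36 and 11.3 at 2D and 0, 11.3 and 1.82 at 4D, and Fos at 1.6, 46 and 2.71 at 2D and 45.2, 22.6 and 13.1 at 4D, without a common direction.

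Epithelial genes were lower in the D arm at 4D. Of 23 tested, 10 were lower in all 3 cell types and 0 higher, and the median was -1.04. Krt18, a keratin of simple epithelia, was at 47.7, 223 and 27.6 FPKM at 2D and 0.827, 9.28 and 1.88 at 4D (log2 difference -4.16, SE 0.44, limma adjusted p = 0.105). Crb3, of the apical polarity complex, was at 19.98, 17.7 and 2.51 at 2D and at 0 in all 3 libraries of 4D. Epcam, an epithelial adhesion molecule that also marks pluripotent cells, was at 47.5, 43.9 and 0.953 at 2D and 3.85, 5.46 and 2.29 at 4D, lower in LT-HSC and ST-HSC but not in MP. In N the epithelial median was -0.74 over 13 tested genes, and Krt18 was at 166, 29.6 and 0 at 2N and 79.97, 7.46 and 0 at 4N.

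Metabolic lists differed in direction. Of 25 tested NRF2 antioxidant genes, 13 were lower in all 3 cell types and 2 higher, with medians of -0.57 in D and -0.44 in N. Gstm1, a glutathione transferase, was at 118, 209.5 and 276 FPKM at 2D and 25.3, 25.5 and 36.1 at 4D (log2 difference -2.69, SE 0.28, limma adjusted p = 0.105), and in N at 5.5, 15.2 and 96.2 at 2N and 5.73, 10.5 and 48.8 at 4N. Slc40a1, the iron exporter ferroportin, was at 50.7, 155 and 62.3 at 2D and 10.2, 4.78 and 3.92 at 4D. Both separated the days completely. Of 55 tested genes of oxidative phosphorylation, 21 were higher and 5 lower in all 3 cell types, but the medians were alike in the arms, 0.18 in D and 0.17 in N. Ndufb8, of complex I, was at 1257, 933 and 1315 at 2D and 1380, 1824 and 2647 at 4D. Of 29 tested ATF4 and amino acid genes, 11 were higher and 3 lower. Psat1, of serine synthesis, was at 375, 141 and 431 at 2D and 702, 478 and 552 at 4D, and Asns, asparagine synthetase, at 499, 152 and 443 at 2D and 661, 505 and 719 at 4D. Nupr1, a stress-induced cofactor on the same list, was lower, at 40.1, 121 and 52.9 at 2D and 0.799, 14.5 and 12.9 at 4D. Bcat1, which starts the breakdown of branched-chain amino acids and was chosen after its values were seen, was at 31.7, 2.01 and 25.2 at 2D and 69.7, 19.5 and 83.8 at 4D. Of 28 tested genes of lipid synthesis, 7 were higher and 2 lower. Lss, lanosterol synthase, was at 6.36, 2.38 and 2.65 at 2D and 16.8, 21.8 and 11.9 at 4D. Of 27 tested glycolysis genes, 5 were higher and 2 lower, that is 18.5% and 7.41%, against 17.4% and 20.5% of all genes.

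Of 14 tested imprinted genes, 5 were lower in all 3 cell types and 1 higher, including Mest, a hydrolase of fetal tissue, at 573, 871 and 100.2 FPKM at 2D and 96.3, 194 and 46.8 at 4D. Sox4, a factor of progenitor cells, was at 106, 139 and 225 at 2D and 17.4, 40.6 and 76.1 at 4D. Of the 21 tested Sox, Klf and Id genes, 6 (28.6%) were lower and 1 (4.76%) higher. Of 45 tested chromatin enzymes, 7 (15.6%) were higher and 10 (22.2%) lower, near the 17.4% and 20.5% of all genes. Hdac5, a class IIa deacetylase, was at 34.8, 229.7 and 176 at 2D and 9.26, 70.4 and 155 at 4D, and Ezh2 of the Polycomb complex at 101, 56.7 and 113 at 2D and 177, 130.2 and 83.5 at 4D. Of 24 tested genes of cell death and survival, 5 (20.8%) were higher and 7 (29.2%) lower. Cflar, an inhibitor of caspase-8, was at 15.1, 50.1 and 22.8 at 2D and 5.91, 13.8 and 3.18 at 4D. Of 10 tested liver and barrier genes, 4 were lower and 1 higher. Fetub, a liver-secreted fetuin, was at 64.4, 22.6 and 1833 at 2D and 72.1, 56.4 and 172 at 4D in D and at or near 0 in N except for 8.88 in LT-HSC of day 4.

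**Figure D5:**
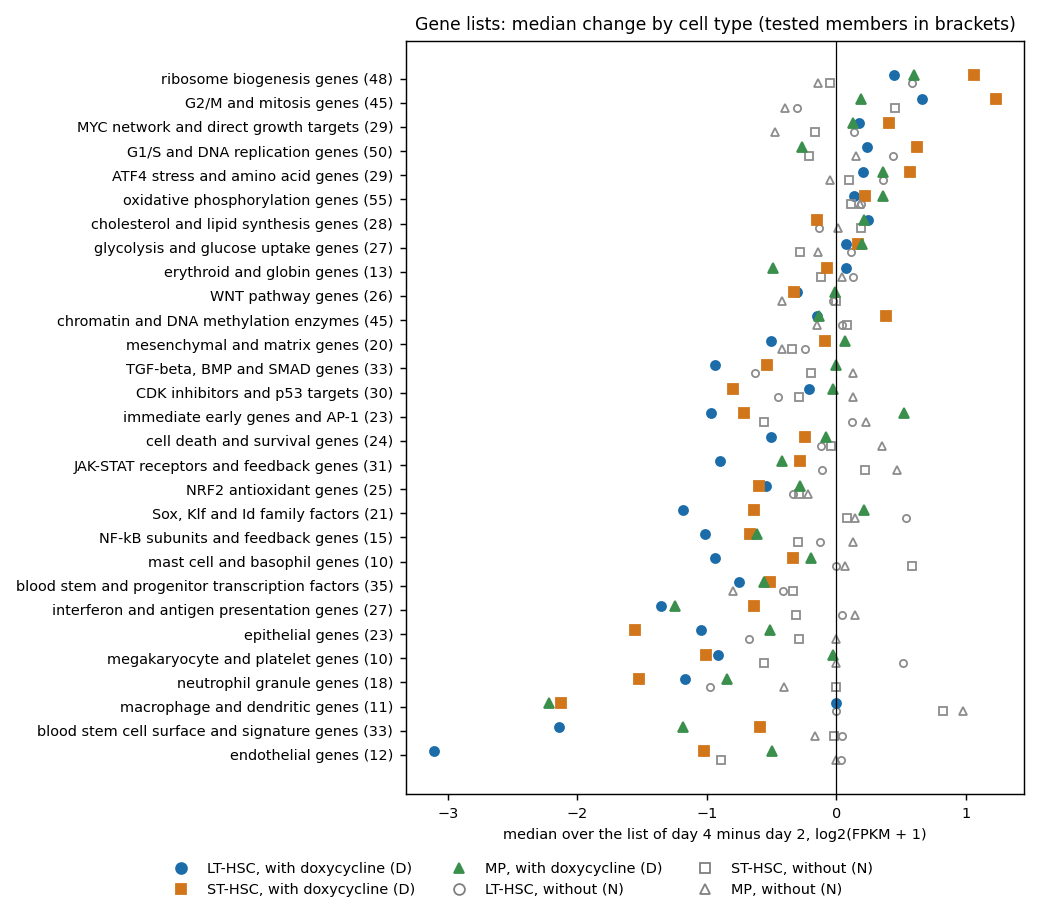
Median change from day 2 to day 4 on the log2(FPKM + 1) scale (horizontal axis) for the gene lists with at least 10 tested members in both arms, each point 1 cell type, filled for D and open grey for N. D medians ran from 0.45 to 1.07 for ribosome biogenesis and from -3.11 to -0.50 for endothelial genes, and the order of the lists differed between cell types.

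The D and N arms share no library between these 2 comparisons, so the difference of their changes could be tested over 12 libraries. Of 10920 genes, 0 passed limma's interaction term at an adjusted p under 0.05, and at an unadjusted p under 0.05 there were 385 with a more positive and 574 with a more negative change in D. In N alone, 0 of 10363 genes passed, and 385 were higher and 408 lower at an unadjusted p under 0.05. The smallest p values with a more positive change in D belonged to Got1, a cytosolic aspartate transaminase, and AA467197, followed by Pax6, Ppa1 and 2010317E24Rik. Got1 was at 65.8, 37.2 and 65.9 FPKM at 2D and 196, 167 and 226 at 4D, and at 77.9, 148 and 133 at 2N and 69.7, 94.3 and 123 at 4N (interaction 2.12, unadjusted p = 9.64e-05, limma adjusted p = 0.160). For AA467197 the term came from the N arm, with 35.1, 8.97 and 22.1 at 2N and 0 in all 3 libraries of 4N. On the negative side were Hdac5, Fgd2, Ly6d, Cd74 and H2-Ab1. Fgd2, a Cdc42 exchange factor of antigen-presenting cells, was at 29.9, 87.5 and 46.8 at 2D and 0, 18.9 and 3.59 at 4D in D and at 8.97, 22.3 and 17 at 2N and 18.4, 56.1 and 60.4 at 4N, with opposite directions in all 3 cell types. Hdac5 was likewise at 24.7, 16.5 and 17.9 at 2N and 164, 62.2 and 91 at 4N. Whether any of these genes differs between the arms is not shown by an adjusted p of 0.160 or more.

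In fibroblasts under doxycycline more genes were 2-fold higher than lower from day 2 to day 4. Of 7483 genes with 10 FPKM in either fibroblast library, 324 (4.33%) were at least 2-fold higher at 4D and 58 (0.775%) lower, from 1 library a day and without a test. Of the 65 of the 84 higher blood genes that reached 10 FPKM in fibroblasts, 4 were 2-fold higher there, and of 92 of the 223 lower genes, 2 were 2-fold lower. Such small counts are to be read against the 4.33% and 0.775% of all fibroblast genes, and alone they show no disagreement with blood. The fibroblast medians were -0.42 for ribosome biogenesis and 0.78 for interferon and antigen presentation genes.

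Some of the largest changes involve genes whose reads may be shared with near-identical copies. Gm2000 shares 375 of its 415 transcript words of 31 bases with Rpl35, and Rpl38 shares 183 of 579 with the pseudogene Rpl38-ps2. Bex2 shares 310 of its 873 words with other genes, 163 of them with Bex3. Gm2000 and Rpl38 differed alike between the days with and without doxycycline. Gm2000 was at 12.2, 9.71 and 15.5 FPKM at 2D and 22.5, 15.5 and 11.3 at 2N, and at 0 in all 6 libraries of day 4. Rpl38, a ribosomal protein, was at 37.2, 5.74 and 14.1 at 4D and 30.1, 27.6 and 17.7 at 4N, and at no more than 2.62 at day 2. Rps21, Rplp0, Tpt1 and Rps20, chosen after their values were seen, also differed alike in both arms. Rplp0 was at 1179, 990 and 872 at 2D and 403, 335 and 372 at 4D in D and at 1113, 1001 and 837 at 2N and 499, 423 and 268 at 4N. Gadl1 and BC048507 did so too. BC048507 was at 25.1, 15.2 and 24 at 2D and 108, 78.8 and 90.3 at 4D in D and at 10.01, 13.3 and 16.9 at 2N and 56.3, 62.5 and 64.7 at 4N. BC048507 shares 27 of its 570 words with Dynll1, and copies of Rps21, Rplp0, Tpt1, Rps20 and Gadl1 were not searched for. How the counting divided reads shared between copies is not stated, so the values of at least Gm2000, Rpl38 and Bex2 are uncertain. The cause of the like differences in both arms was not tested.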

How the data were processed

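The deposited values are FPKM for each gene in each of the 18 libraries, made by the authors with TopHat and Cufflinks on the mouse build mm9, per the submitters' processing notes; their versions, annotation and filters are not stated there. FPKM holds no read depth, so no counting interval could be given. Blood libraries were amplified from 25 cells by PCR, which adds noise that falls most on low genes.

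The table has 36818 entries. Symbols on several entries (158) were summed, and gene classes were taken from GENCODE M21 (GRCm38) by identifier (20158 coding entries) or else by symbol (814), which gave 20857 protein-coding symbols and set aside 15846 entries, 3171 of them without a class. Values were transformed to log2(FPKM + 1), so differences of low genes are understated. Testing used limma 3.58.1 under R 4.3.3 on genes averaging at least 1 FPKM across the libraries entered (trend and robust empirical Bayes, Benjamini-Hochberg adjustment, two-sided), with cell type as the block. Pairing comes from the cell types, and the labels give no replicates of a condition. The 2-fold rule asks for a difference of at least 1 on the log2 scale, the same way in all 3 cell types, and at least 10 FPKM in 1 of the 6 libraries. The fits were run on simulated data as a check of the code. The outcome is not given here, so how many true changes they would find is not stated.

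Members and the 36 gene lists were chosen with earlier results of these data known, so no p-value over a list is given. Named genes are the 15 with the largest smallest difference in each direction and the 5 with the smallest interaction p in each direction. Of each list up to 6 members were named, first those past the 2-fold rule, ranked by their smallest difference. Places left were filled with the members of highest mean FPKM in the 6 D libraries. Further genes are marked as chosen after their values were seen. Alternatives were other pseudocounts, scalings, filters, folds and fits, and leaving out each cell type.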

Additional observations from a re-analysis of the deposited data

Results flagged for a closer look

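For 5 gene lists the median difference between day 4 and day 2 had 1 sign in all 3 blood cell types and the opposite sign in the single pair of fibroblast libraries. The fibroblast median was -0.31 for G2/M genes and -0.42 for ribosome biogenesis genes, which were above 0 in blood cells. It was 0.33 for CDK inhibitors and p53 targets, 0.36 for JAK-STAT genes and 0.78 for interferon and antigen presentation genes, which were below 0 in blood cells. For CDK inhibitors and p53 targets the MP median was only -0.02, beside -0.05 for all genes in MP. The difference between blood cells and fibroblasts was not tested, and the fibroblast libraries were prepared by another route.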

How the results depend on the processing

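In the limma comparison of 4D with 2D, 0 genes passed in either direction with a pseudocount of 0.1 or 10, with median-ratio scaling, quantile normalisation, no filter, a mean of at least 5 FPKM, neither trend nor robust variances, or no replicate block (542 higher and 556 lower at an unadjusted p under 0.05). Leaving out 1 cell type gave 0 to 45 genes higher and 0 to 116 lower, the most without ST-HSC; in N it gave 0 to 8 higher and 0 to 6 lower, and for the interaction 0 to 2. Testing all entries gave 19 higher and 35 lower, of which 16 were protein-coding, and 26 and 29 in N; fitting all 15 blood libraries gave 2 and 7. The cause of these gains was not tested. The counts at least 2-fold in all cell types, 84 and 223, became 19 and 47 with a pseudocount of 10 (8 and 4 in N), 36 and 84 at 50 FPKM (16 and 16), and 8 and 30 at 4-fold (4 and 7), each a stricter rule. With all entries, 127 were higher, and in N 72 higher and 112 lower. Over 2 cell types only, they ranged from 181 to 294 higher and 407 to 543 lower, and in N from 138 to 152 and 142 to 205.

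The signs of some named genes depended on the setting. Kit had a difference of 0.001 with a pseudocount of 0.1 and 0.19 under quantile normalisation, where Nme1 was at -0.071 and Npm1 at -0.11. Leaving out 1 cell type at a time gave differences of -1.06 to 0.14 for Egfl7, -0.69 to 0.009 for H2-K1, -1.10 to 0.41 for Id1, -0.90 to 0.37 for Id3, -0.31 to 0.13 for Kit, -1.97 to 0.097 for Nfe2, -0.071 to 0.055 for Npm1. The range was -1.61 to 0.068 for Pou5f1, -0.45 to 0.32 for Cdkn1a, -0.095 to 0.17 for Nme1, -1.11 to 0.60 for Stmn2, -1.62 to 0.72 for Fetub, -0.18 to 0.48 for Ifitm3 and -0.031 to 0.41 for Trp53. Quantile normalisation moved the median of all genes from -0.06 to 0.04, a shift of under 0.1 on the log2 scale.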
